A study of Mus musculus with 32 samples.

Results

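Genes annotated as a single uninterrupted stretch of exon, other than the histone genes named Hist, were examined in mouse P19 cells depleted of SR proteins. A gene was taken when the exon bins that the authors laid over it form 1 block, each bin starting where the one before ends, and when its identifier is not a merger of overlapping genes. Of 37223 gene identifiers, 36425 were not mergers and 12756 of those formed 1 block. Leaving out 54 genes named Hist left 12702 genes, beside 23669 genes of more than 1 block. A block is not always a transcript without introns. 140 of the 12702 have more than 1 exon in some transcript of the older GENCODE vM1 annotation, among them Ubald1, Crebzf, Malat1 and Neat1, and 12266 are a single bin.

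P19 is a mouse embryonal carcinoma line that resembles the cells of the early embryo. The line was transfected for 36 h with esiRNAs, which are enzymatically cut pools of small interfering RNAs, against SRSF1, SRSF2, SRSF3, SRSF4, SRSF5, SRSF6 or SRSF7, or against GFP as the control. Poly(A)+ RNA was sequenced from whole cells and from cytoplasmic fractions of each of the 8 groups, in replicates A and B, giving 32 libraries. The study's methods call the replicates biological, while the labels give only their letters. Neither says that the letters came from separate cultures, so the p-values measure the spread between these libraries, which may be technical in part. Levels are given as scaled reads, which are reads per gene multiplied by 1 factor per library. The whole-cell libraries held 26940401 to 40879304 reads assigned to genes and the cytoplasmic libraries 27715182 to 48598242.

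SR proteins are RNA-binding proteins named for their arginine- and serine-rich domains. They act in splicing and several of them also carry mRNA out of the nucleus through the export receptor NXF1. An mRNA without introns is not handled by the spliceosome, so its passage to the cytoplasm cannot use the proteins that splicing leaves on an mRNA, and such genes have long served to study export apart from splicing. Many single-exon sequences in mammals are retrocopies, which arise when an mRNA is reverse transcribed and inserted at another place in the genome. A retrocopy that lost its coding capacity is called a processed pseudogene, and a read from it may be impossible to tell from a read of the parent gene.

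How closely a retrocopy can match its parent is shown by 3 pairs, each as 30 bases of the coding sequence from the GENCODE vM1 transcripts, 5′ to 3′, with capitals at the bases that differ. Gm12355 (chr11:98624351-98625661, minus strand, mm10) copies Srsf3, a target of the knockdowns (chr17:29032673-29043366, plus strand). Gm6793 (chr8:112013433-112015036, minus strand) copies Hnrnpa3 and Rpl10-ps3 (chr9:50344240-50344981, minus strand) copies Rpl10.
Gm12355: aagactgaattagaaTgggcttttggctat
Srsf3: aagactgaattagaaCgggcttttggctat
Gm6793: ATggagggccatgatccaaaggaaccagag
Hnrnpa3: GAggagggccatgatccaaaggaaccagag
Rpl10-ps3: atgggccgccgccccgcccggtgttaccgg
Rpl10: atgggccgccgccccgcccggtgttaccgg
Over the 120 coding bases compared, Gm12355 matched Srsf3 at 119, Gm6793 matched Hnrnpa3 at 118 and Rpl10-ps3 matched Rpl10 at 120. These stretches were picked for their identity. In each pair the offset of its stretch was then kept over all coding bases that overlap, with no gaps allowed. Gm12355 matched at 331 of 372 bases (89.0%), Gm6793 at 808 of 1056 (76.5%) and Rpl10-ps3 at 645 of 645. An inserted or deleted base would put all later bases out of register, so these shares can understate the identity. Gm12355 has 492 coding bases, and the Srsf3 transcript used has 375. Of all 25-base words of the annotated transcripts, 68.5% of those in Gm12355, 80% of those in Gm6793 and 100% of those in Rpl10-ps3 also occur in the parent. At 75 bases, close to the read length, the shares found in any other protein-coding gene, not only the parent, were 36.1%, 66.3% and 100%. No read inside the coding sequence of Rpl10-ps3 can be assigned to it rather than to Rpl10 by sequence alone.

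The 12702 genes fall into 8 classes by biotype. Small RNA genes are the largest class with 4781 (37.6%), followed by 3829 processed pseudogenes (30.1%) and 2417 protein-coding genes (19%). There are 908 without a biotype, 427 other pseudogenes, 175 segments of immune receptor genes, 139 long noncoding genes and 26 genes of the mitochondrial genome. Most were silent or nearly so. 6043 had no exon-bin read in any of the 32 libraries, and 1838 reached 10 scaled reads in whole GFP cells. The olfactory receptors, the odorant receptors of the nose, make up 1012 of the protein-coding genes, and 844 of them had no exon-bin read. The filter on low values passed 2239 of the 12702 genes in whole cells, 2093 in the cytoplasm and 2447 in the fit over both. A gene absent from GFP can pass it only through a knockdown in which it is high. In whole cells 1430 processed pseudogenes, 530 protein-coding genes, 77 small RNA genes, 55 long noncoding genes and 8 mitochondrial genes passed. The libraries were selected for poly(A) tails, which most small RNAs lack.

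**Figure D1:**
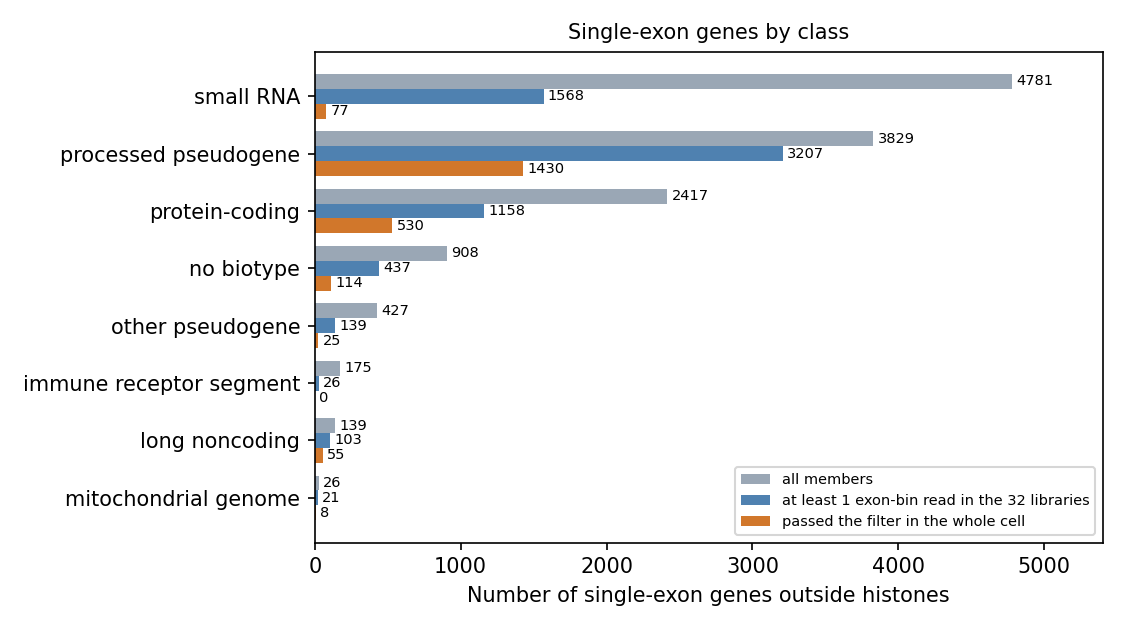
Number of single-exon genes by class (bars, from 0), for all annotated genes, those with at least 1 exon-bin read in any of the 32 libraries, and those that passed the filter on low values in whole cells. The 4781 small RNA genes form the largest class, but only 77 of them passed the filter, against 1430 of 3829 processed pseudogenes.

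The single-exon genes of the nuclear genome took a larger share of the reads in the cytoplasm than in whole cells, in both kinds of table. In the gene tables all members held 6.79% and 6.97% of all scaled reads in the whole GFP cells of replicates A and B, and 10.2% and 10.8% in the cytoplasm. Over all groups the share ran from 6.74% to 8.32% in whole cells and from 10.2% to 12% in the cytoplasm. These whole-cell shares lack mt-Co1, which the gene table lists at 0 in whole cells although its exon bins held 485515 to 946764 reads. In exon-bin reads the shares were closer, 6.18% and 6.49% in whole GFP cells and 7.25% and 7.68% in the GFP cytoplasm, and the ranges of 6.18% to 7.43% and 7.25% to 8.36% over all groups overlapped. Outside the mitochondrial genome the ranges did not overlap in either table. They were 5.19% to 5.76% in whole cells and 7.87% to 9.64% in the cytoplasm in the gene tables, and 3.81% to 4.27% and 5.63% to 6.99% in exon-bin reads. Within the gene tables, processed pseudogenes held 3.34% to 3.83% in whole cells and 5.29% to 6.89% in the cytoplasm. The protein-coding members held 1.15% to 1.28% and 1.81% to 2.27%. Long noncoding genes went the other way, from 0.0579% and 0.0551% in whole GFP cells to 0.00944% and 0.00947% in the GFP cytoplasm. The tables of the 2 fractions were scaled separately, which does not affect these shares.

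Per kilobase, the most abundant member outside the mitochondrial genome and its nuclear copies was Gm10260, annotated as protein-coding, with 41603 scaled reads per kilobase in whole GFP cells. Its closest gene is Rps18, a protein of the small ribosomal subunit. It was followed by Gm13394, a copy of the glycolytic enzyme gene Gapdh, at 33393 per kilobase, Rps24-ps3, a copy of the ribosomal protein gene Rps24, at 23115, Gm1821, a copy of the ubiquitin gene Ubb, at 22713, and Gm10123, a copy of the cyclophilin gene Ppia, at 22084. Gm13394 shares 95.9% of its 25-base words with Gapdh, Gm1821 shares 99.7% with Ubb and Gm10123 shares 99.9% with Ppia. These levels are therefore those of a sequence found at more than 1 place, and how the reads were divided between the places cannot be told from the tables. Among the genes with little shared sequence, H1f0, a linker histone gene outside the Hist clusters, stood at 2547 per kilobase, the nuclear RNA Malat1 at 1766 and the pluripotency factor Sox2 at 1336.

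Each gene's cytoplasmic level was divided by its whole-cell level within a replicate letter, and the log2 of this ratio was set against the median of all 12565 genes with at least 100 scaled reads on average over the GFP libraries. A value of 0 is the ratio of the median gene. This is a relative figure, and no test was run on it. Protein-coding single-exon genes had a median log2 ratio of 0.68 in replicate A and 0.70 in replicate B over 262 genes, and 188 of the 262 lay above 0. The 695 processed pseudogenes had medians of 0.96 and 1.09, and 552 of them lay above 0. The 11550 other genes had medians of -0.08 and -0.08. Long noncoding genes lay lowest, at -1.55 and -1.91 over 9 genes, and the 9 other pseudogenes lay at -1.16 and -1.04. The gap between letters was smaller than the gap between these classes, except for the 7 mitochondrial genes, whose medians were -0.22 and -1.02. The minimum level mattered for some classes. With a minimum of 10 scaled reads the median of the protein-coding members was 0.43, and with 500 it was 0.91.

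**Figure D2:**
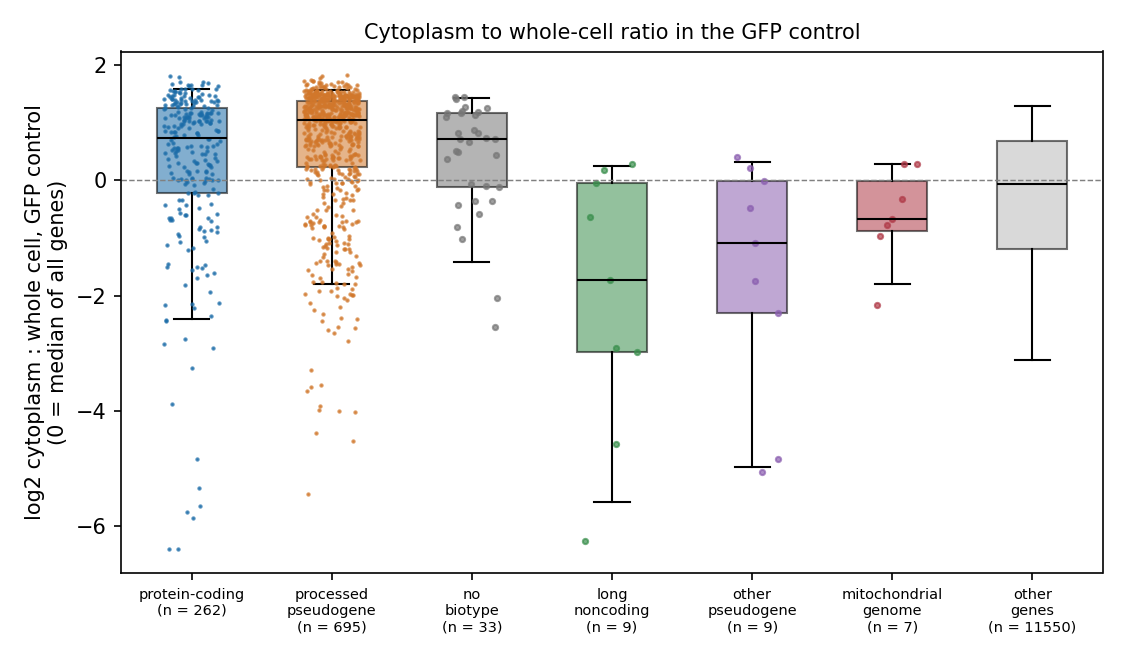
Log2 ratio of cytoplasmic to whole-cell level in GFP cells, mean of replicates A and B, relative to the median gene (0), by class. Points are single genes and boxes show the median and quartiles, with whiskers at percentiles 5 and 95. The other genes are drawn without points. Processed pseudogenes and protein-coding members lie mostly above 0, long noncoding genes mostly below, and the median of the other genes is -0.07.

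Among the members with at least 100 scaled reads in both GFP fractions, the lowest ratio belonged to Malat1 (chr19:5795690-5802672, minus strand), the long noncoding RNA of nuclear speckles. It had 13129 and 11540.4 scaled reads in whole GFP cells and 278 and 89.8 in the cytoplasm, a log2 ratio of -5.52 and -6.97. In all 8 groups Malat1 was higher in the cytoplasm of replicate A than of replicate B. The processed pseudogene Gm14738 (chrX:82205993-82208472, minus strand) came next, with 4895 and 4921 in whole cells, 408 and 397 in the cytoplasm and ratios of -3.54 and -3.61. None of its 25-base words occur in the protein-coding transcripts of another gene, the only ones searched. Epm2aip1, which encodes a protein that binds the laforin phosphatase, had -2.77 and -3.04, and Crebzf, a basic leucine zipper regulator of transcription, had -2.91 and -2.78. Epm2aip1 and Crebzf each have transcripts of 2 exons in the older annotation, so that a retained intron can lie within their blocks. Gm5844, a copy of the chaperone gene Hsp90aa1, had -2.09 and -2.56, and Hsp90aa1 itself had -1.81 and -2.40. Neat1, the RNA on which paraspeckles are built, fell short of 100 in the cytoplasm, with 576 and 732 in whole cells, 87.4 and 73.2 in the cytoplasm and ratios of -2.67 and -3.29.

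Of the 6 members with the highest ratios, 4 have a ribosomal protein gene as the closest gene. Rpsa-ps5, whose closest gene is Rpsa with 26.4% of 25-base words shared, had 317 and 324 scaled reads in whole GFP cells and 1021 and 1206 in the cytoplasm, a log2 ratio of 1.72 and 1.91. Gm10073, which shares 77.6% of its 25-base words with Rplp1, had 1.71 and 1.89, and Rplp1 had 1.53 and 1.70. Gm7860 and Rps2-ps4, both closest to Rps2, and Gm13413 and Gm10076, closest to other copies, followed with values between 1.62 and 1.89. Of the processed pseudogenes whose closest gene encodes a ribosomal protein, 223 had a ratio, with a median of 1.28 and quartiles of 1.04 and 1.47. The 387 whose closest gene is another gene had a median of 0.70 and ranged down to -5.44.

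Within the protein-coding genes of known function the ratio differed widely between gene groups. The immediate early and stress regulators, which cells switch on soon after a stimulus, all lay above 0 where they had a ratio. Jund had 609 and 745 scaled reads in whole GFP cells and 1520.2 and 1861 in the cytoplasm, a log2 ratio of 1.36 and 1.34. Junb had 1.16 and 1.13, Ier2 1.06 and 1.20, Cebpb 1.11 and 1.42, and Jun was the lowest of them with 0.33 and 0.16. The histone variant genes H2afx and H1fx had 1.54 and 1.53, and 1.59 and 1.55, and the linker histone gene H1f0 had 0.47 and 0.46. Only poly(A)+ RNA of these genes was sequenced.

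The Sox genes, which encode HMG-box transcription factors of the early embryo and nervous system, were spread over both sides of 0. Sox3 had 231 and 253 scaled reads in whole GFP cells and 595 and 665 in the cytoplasm, a log2 ratio of 1.40 and 1.41. Sox2 had 3074 and 3493 in whole cells and 2222 and 1848 in the cytoplasm, with -0.43 and -0.90. Sox4 had -1.20 and -1.70 and Sox11 had -1.57 and -1.52. In each letter Sox3 lay above Sox2, and Sox2 above Sox4 and Sox11, while Sox4 and Sox11 changed places between the letters.

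Imprinted single-exon genes and retrogenes were also divided. Ndn, which encodes necdin, had 0.88 and 1.17, and Mcts2, an imprinted retrogene of Mcts1, had 0.64 and 0.63. Peg12 lay at 0.44 and 0.01, and the others with a ratio lay below 0. Magel2 had -1.23 and -0.64, Mkrn3 -0.84 and -0.85, Zrsr1, a retrogene relative of the splicing factor gene Zrsr2, -1.32 and -1.70, Nap1l3 -2.00 and -2.44 and Nap1l2 -1.95 and -2.93. Of the Frizzled genes, which encode the receptors for Wnt ligands, Fzd7 had -0.91 and -1.08, Fzd1 -0.78 and -0.94, Fzd2 -0.09 and 0.18 and Fzd9 0.48 and 0.65. The BTB-domain genes Klhl9 and Kbtbd7, which encode adaptors of a ubiquitin ligase, had -1.45 and -1.48, and -1.98 and -2.86.

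The ratio of a copy followed that of the gene it resembles. Of 2449 tested members outside the mitochondrial genome, 2167 matched a GENCODE vM1 gene by identifier and could be compared by sequence. In 840 of these at least 50% of the 25-base words occur in the protein-coding transcripts of 1 other gene, and 521 share under 5% with any. For 473 processed pseudogenes with a ratio for both, the log2 ratio of the copy and that of the closest gene correlated with Pearson's r = 0.738 and Spearman's rho = 0.956, and 448 of the pairs differed by at most 0.5. For 81 protein-coding members the values were r = 0.975 and rho = 0.942, and 79 pairs were that close. These correlations run across genes within the same 4 libraries, and a read from shared sequence may have been counted for either gene of a pair. The copies had a median level of 10.7% of their closest gene's. Protein-coding members that share under 5% had a lower median ratio, 0.31 over 138 genes, with 89 above 0 and a range from -5.85 to 1.69.

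**Figure D3:**
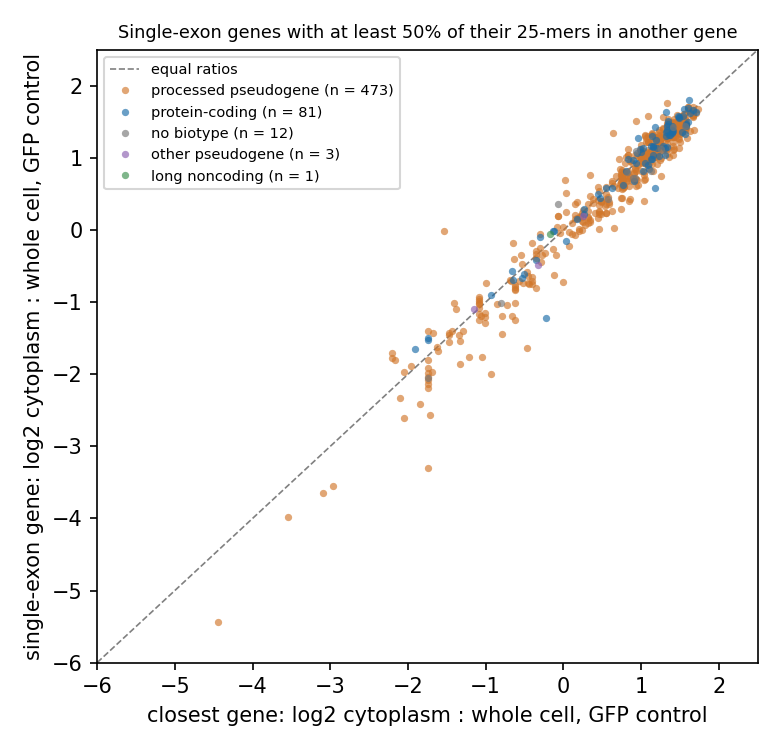
Log2 ratio of cytoplasmic to whole-cell level in GFP cells for single-exon genes that share at least 50% of their 25-base words with 1 other gene (vertical axis) against the ratio of that gene (horizontal axis), relative to the median gene. Each point is a pair, the diagonal marks equal ratios, and 543 of 570 pairs lie within 0.5 of it.

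Processed pseudogenes lay above protein-coding members, and these above long noncoding genes, in both letters of all 8 groups. The mean of the letter medians of the processed pseudogenes was lowest with SRSF2 depleted, at 0.844, where the letters gave 0.52 and 1.17, and highest with SRSF7 depleted, at 1.09. For the protein-coding members it lay between 0.619 (SRSF3) and 0.876 (SRSF7). For both classes the spread over groups was smaller than the gap between the letters of the SRSF2 knockdown. For the 9 long noncoding genes it lay between -2.37 (SRSF5) and -1.23 (SRSF3).

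The knockdowns were read first from the targeted genes. Whole-cell levels left in the matching knockdown were 52.4% for Srsf1, 58.0% for Srsf2, 68.7% for Srsf3, 57.0% for Srsf4, 48.8% for Srsf5, 49.6% for Srsf6 and 49.5% for Srsf7. Srsf3 itself had 8695 and 8161 scaled reads in GFP and 7145 and 4440.1 in its knockdown, so replicate B was depleted further than replicate A. Markers of embryonal carcinoma cells were high throughout, with Pou5f1 between 23944 and 37255 in all 16 whole-cell libraries. Genes of epithelium and smooth muscle varied with the letter, as Krt8 did with 1310 and 3947 in the GFP replicates A and B. The 3 pancreas transcripts looked at, Cela2a, Prss2 and Cpa1, summed to 259 to 369 scaled reads in 7 of the 8 cytoplasmic libraries of replicate A, GFP with 307 among them. The exception was SRSF2 replicate A with 14.2. The sum was 4.64 to 13.2 in the 8 cytoplasmic libraries of replicate B and 1.12 to 7.32 in whole cells. Their part in the cytoplasmic results was not tested. In bulk RNA fewer cells of a kind and less RNA per cell cannot be told apart.

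Copies of the targeted genes were lower in the matching knockdown, short of the threshold. Gm12355, whose sequence is given above, had 847 and 888 scaled reads in whole GFP cells and 705 and 435 in the SRSF3 knockdown, while the 12 libraries of the other knockdowns lay between 752 and 1183. Both SRSF3 libraries were below all the others. The change of -0.66 ± 0.26 (log2, SE) had an adjusted p of 0.124 with limma, and 0.00255 when the letters entered as a block. Gm9761, which shares 92.1% of its 25-base words with Srsf3, had 532 and 544 in GFP and 499 and 262 in the SRSF3 knockdown, against 402 to 717 in the other knockdowns, so that replicate A lay within their range. Its adjusted p was 0.19, and 0.0147 with the block. Gm12966, which shares 76.6% with Srsf5, had 376 and 320.0 in GFP and 228 and 149 in the SRSF5 knockdown, against 318 to 530 in the 12 other knockdown libraries. Its unadjusted p was 0.00212, its adjusted p 0.9999, and 0.0821 with the block. Gm12355 and Gm9761 were chosen after their values were seen.

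Of the 7 knockdowns, that of SRSF3 changed the most single-exon genes in whole cells. At an adjusted p under 0.05 (limma over all genes, Benjamini-Hochberg), 60 rose and 30 fell, which is 90 of 2239 or 4.02%. Over all 18552 genes tested the share was 11.5%, with 5.91% higher and 5.59% lower. The median log2 change was 0.06 for the members and -0.00 for all genes. The members had lower levels, with a median of 67.0 scaled reads in whole GFP cells against 517 for the other genes. Below 100 scaled reads 3.30% of 1241 members and 9.86% of 4665 other genes passed. Among genes with 100 to 1000 scaled reads, 5.76% of 677 members and 14.5% of 5714 other genes passed, and above 1000 the shares were 3.12% of 321 and 12.8% of 5934. Replicate A of the SRSF3 knockdown kept more Srsf3 than replicate B, with 7145 and 4440.1 scaled reads. The count nevertheless rested more on replicate A, for a reason that was not tested, and depended on single libraries. It was 1 without SRSF3 replicate A, 169 without SRSF3 replicate B, 12 without GFP replicate A and 35 without GFP replicate B, when 0.532%, 18.3%, 1.32% and 3.45% of all genes passed. Of the 60 that rose, 8 passed the filter on low values only through the SRSF3 libraries, so that they had to be high there. They are Fam71a, Gm15229, Pou3f3, Actl7a, Olfr692, Tssk1, AF366264 and Gm26645, and their p-values carry no weight of their own. Beside them 52 rose and 30 fell. With the letters as a block it was 355, when the share of all genes was 33.2%.

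By class, the counts were uneven. Of the protein-coding members, 28 rose and 16 fell among 530 (8.30%). Of the processed pseudogenes, 18 rose and 11 fell among 1430 (2.03%). Of the long noncoding genes, 9 rose and 1 fell among 55 (18.2%), with a median log2 change of 0.39. No small RNA gene passed among 77. Members that share at least 50% of their 25-base words with another gene passed in 19 of 818 cases (2.32%), and those that share under 5% in 52 of 477 (10.9%), close to the share of all genes. Among the protein-coding genes, those that rose had a median of 20.3 scaled reads in whole GFP cells and those that fell had 588. The counts of rises here include the 8 genes named above that passed the filter only through the SRSF3 libraries. Gm15229 is a processed pseudogene, Gm26645 is long noncoding and the others are protein-coding. Low levels in GFP followed from that way of passing, so the median of 20.3 rests in part on the filter.

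Among the genes that fell, Ubald1 (chr16:4874778-4880315, minus strand) had the smallest p. It had 1019.5 and 1060.4 scaled reads in whole GFP cells and 462 and 588 in the SRSF3 knockdown. The 12 libraries of the other knockdowns lay between 1012 and 1284, so the SRSF3 libraries stood apart from all the rest. The change was -1.01 ± 0.12 (log2, SE) with an adjusted p of 0.00145. Ubald1 has transcripts of up to 3 exons in the older annotation. It also fell in the cytoplasm, from 2011 and 2591 to 910.4 and 1139.5, a change of -1.17 ± 0.19 with an adjusted p of 0.0246. The relative change of the cytoplasm against whole cells was -0.19 and did not pass.

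Of the Frizzled receptors, Fzd2 and Fzd9 fell. Fzd2 had 981 and 924 in GFP and 596 and 631 in the SRSF3 knockdown, against 754 to 1169 elsewhere, so that both SRSF3 values lay below all other libraries (-0.65 ± 0.12, adjusted p = 0.00911 with limma). Fzd9 had 91.9 and 86.2 in GFP and 38.9 and 58.0 in the SRSF3 knockdown (-0.90 ± 0.26, adjusted p = 0.0435 with limma), but the SRSF7 libraries, with 50.8 and 39.5, were as low. Fzd1 changed by -0.62 ± 0.20, close to Fzd2, with an adjusted p of 0.0579 with limma, short of the threshold. Fzd7 had 1499 and 1493 in GFP and 1648 and 1448 in the SRSF3 knockdown, and was not called. Frat2, which encodes an inhibitor of the kinase GSK3 in the same Wnt pathway, had 218 and 243 in GFP and 99.0 and 142 in the SRSF3 knockdown, below the 189.8 to 282 elsewhere (-0.96 ± 0.19, adjusted p = 0.0114 with limma). Frat2 was chosen after its values were seen.

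Crebzf, low in the cytoplasm of GFP cells, had 1899 and 1964 in whole GFP cells and 1176 and 1206 in the SRSF3 knockdown, below the 1432 to 2461 of the other knockdowns (log2 change -0.71 ± 0.15, adjusted p = 0.0153 with limma). Most of the largest falls were of genes at low levels. B630019K06Rik had 19 and 18.9 in GFP and 4.71 and 6.55 in the SRSF3 knockdown, against 10.6 to 26.1 elsewhere (-1.62 ± 0.29, adjusted p = 0.00861 with limma). 1110032F04Rik had 58.3 and 58.7 in GFP and 25.9 and 25.3 in the knockdown, against 30.7 to 62.3 elsewhere (-1.17 ± 0.23, adjusted p = 0.0111 with limma). Pabpc1l2b-ps had 38.1 and 31.2 in GFP and 3.54 and 15.9 in the knockdown (-2.03 ± 0.59, adjusted p = 0.0454 with limma). Its values elsewhere, 8.78 to 29.0, were all below the GFP libraries and overlapped the SRSF3 ones. Gm4787, which lies within a merged gene on the same strand, fell from 11.2 and 9.47 to 2.36 and 4.68 (adjusted p = 0.0355 with limma). Inafm2, annotated as an antisense gene, fell from 232 and 211 to 105 and 160.1 (adjusted p = 0.0405 with limma), and the other knockdowns, at 128 to 206, overlapped the SRSF3 libraries.

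The largest rises were of genes with almost no reads in GFP, for which a fitted change depends on the added constant. 1700055D18Rik, a long noncoding gene (chr4:45012830-45014399, plus strand), had 1.12 and 9.47 scaled reads in whole GFP cells and 107 and 52.4 in the SRSF3 knockdown, while the other knockdowns lay between 4.75 and 14.6 (adjusted p = 0.00569 with limma). In exon-bin reads it went from 1 and 10 to 91 and 56. Fam71a had no read in either GFP library and 13.0 and 11.2 scaled reads in the SRSF3 knockdown. Elsewhere only the SRSF2 libraries listed it above 0, with 4.50 and 2.29. B9d1os, a noncoding gene, had 3.36 and 0 in GFP and 25.9 and 23.4 in the SRSF3 knockdown (adjusted p = 0.00805 with limma), with 18.0 and 12.6 in the SRSF2 knockdown. Gm15229 had 0 and 2.84 in GFP and 50.7 and 12.2 in the SRSF3 knockdown, against at most 2.85 elsewhere. Pou3f3, a POU-domain factor of the developing brain, had 2.24 and 1.89 in GFP and 15.3 and 14.0 in the SRSF3 knockdown. Fam71a, Gm15229 and Pou3f3 passed the filter only through these libraries, as said above. Pou3f3 lies within Gm20646 on the same strand.

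Rises at higher levels were smaller. Mcts2 had 553 and 685 in whole GFP cells and 1118 and 877 in the SRSF3 knockdown, a log2 change of 0.67 ± 0.16 with an adjusted p of 0.0205 with limma. It lies within H13 on the same strand, and the SRSF1 and SRSF2 libraries, at 770.2 to 1016, overlapped those of SRSF3. Rraga, a small GTPase that reports amino acids to mTORC1, had 1453 and 1566 in GFP and 2317 and 1964 in the knockdown, above the 1284 to 1927 elsewhere (0.49 ± 0.13, adjusted p = 0.0383 with limma). 4933406P04Rik, at a low level in GFP, rose more. It had 3.36 and 4.73 in GFP and 43.6 and 29.0 in the knockdown, against 2.17 to 15.7 elsewhere (2.86 ± 0.47, adjusted p = 0.0062 with limma). In the cytoplasm it had 2.30 and 0.976 in GFP and 70.1 and 24.7 in the knockdown, with an adjusted p of 0.0557, and 0.00386 with the letters as a block. Rraga and 4933406P04Rik were chosen after their values were seen.

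**Figure D4:**
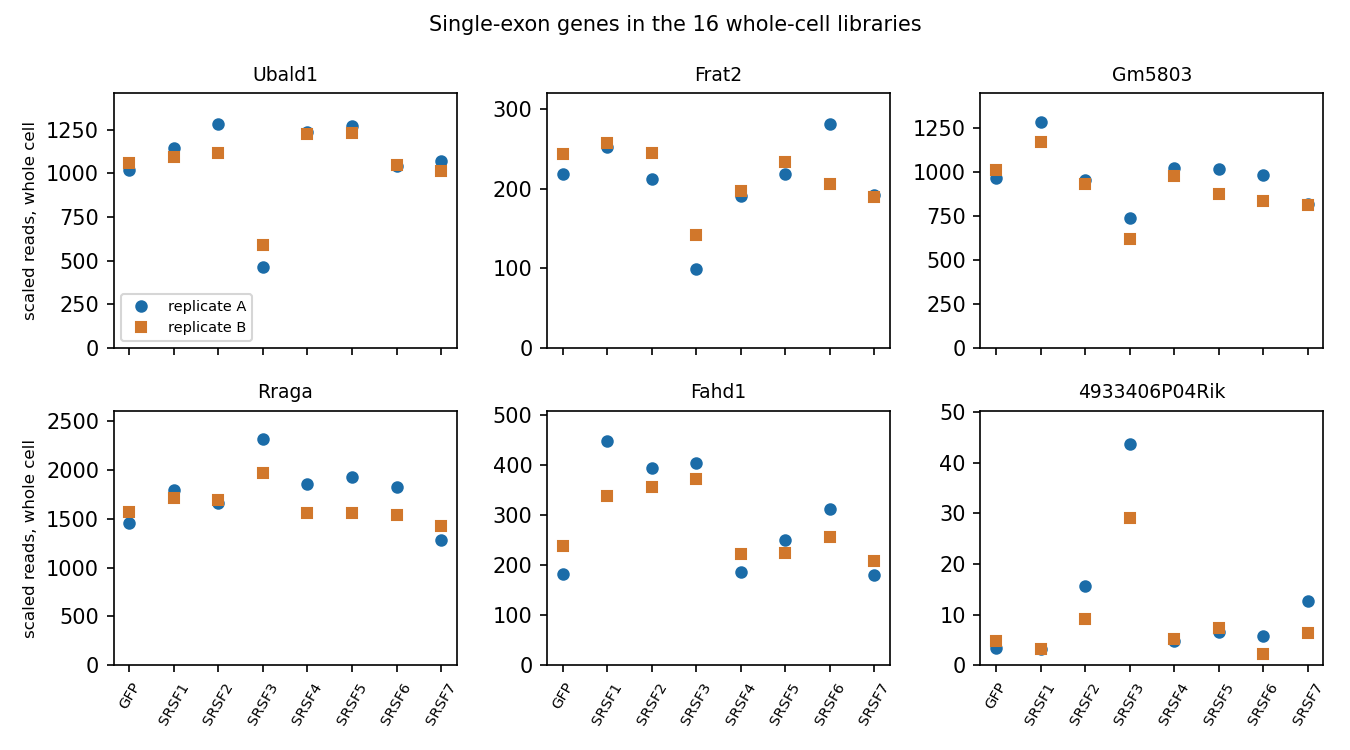
Scaled reads in the 16 whole-cell libraries (GFP and the 7 knockdowns, replicates A and B as separate points) for Ubald1, Frat2, Gm5803, Rraga, Fahd1 and 4933406P04Rik, each on its own vertical axis from 0. In the SRSF3 knockdown Ubald1 (462 and 588), Frat2 (99.0 and 142) and Gm5803 (741 and 617) lie below all other libraries, and Rraga (2317 and 1964) and 4933406P04Rik (43.6 and 29.0) above them.

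Copies that passed moved with the gene they resemble. All 19 called members that share at least 50% of their 25-base words with another gene changed in the direction of that gene, which itself passed in 10 cases. Over 796 such pairs, called or not, the log2 changes correlated with r = 0.768 and rho = 0.779 and differed by a median of 0.079, as a description of pairs that share reads. The 3 tested copies of Hnrnpa1, a splicing repressor gene, all fell. Gm5803 had 967 and 1009 in whole GFP cells and 741 and 617 in the SRSF3 knockdown, below the 815 to 1281 elsewhere (-0.56 ± 0.12, adjusted p = 0.0154 with limma). Hnrnpa1 had 32999 and 31664 in GFP and 25011 and 20945 in the knockdown (-0.51 ± 0.15, adjusted p = 0.0448 with limma). Of 11 copies of Hnrnpa3, 4 fell and all 11 had changes below 0, from -0.56 to -0.40, while Hnrnpa3 changed by -0.40 ± 0.13 with an adjusted p of 0.0634. Of 6 copies of Ube2l3, a ubiquitin-conjugating enzyme gene, 4 rose, with changes of all 6 between 0.52 and 0.74. Ube2l3 went from 4145 and 4263 to 6455 and 5432 (0.48 ± 0.13, adjusted p = 0.0317 with limma). These families were chosen after the calls were seen, and the copies of a family are not independent of each other.

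The exon-bin reads come from the same libraries and were counted separately by the authors on mm10. They gave a second count for the 90 calls, not an independent test of them. Among 1934 members with at least 10 reads, exon-bin and gene-table reads had a median ratio of 1.00, and 1493 agreed within 0.05. In 66 of the 90 calls the exon-bin reads passed in the same direction, in 13 they were tested and did not pass, and 11 were below the filter on low values. No exon-bin read was found for 6 of the called genes in the 4 libraries. They include Olfr461, listed at 0 and 0.947 in GFP and 37.7 and 15.9 in the SRSF3 knockdown, Actl7a, at 1.12 and 1.89 in GFP and 63.6 and 14.0 in the knockdown, and Gm9747, at 111 and 151 in GFP and 68.4 and 48.7 in the knockdown. Gm9747 lies across from Irs1 on the other strand. 26 of the 90 lie inside another gene, and strand use in counting is not stated, so reads of the other gene cannot be told apart there. Which table places these reads correctly was not tested.

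**Figure D5:**
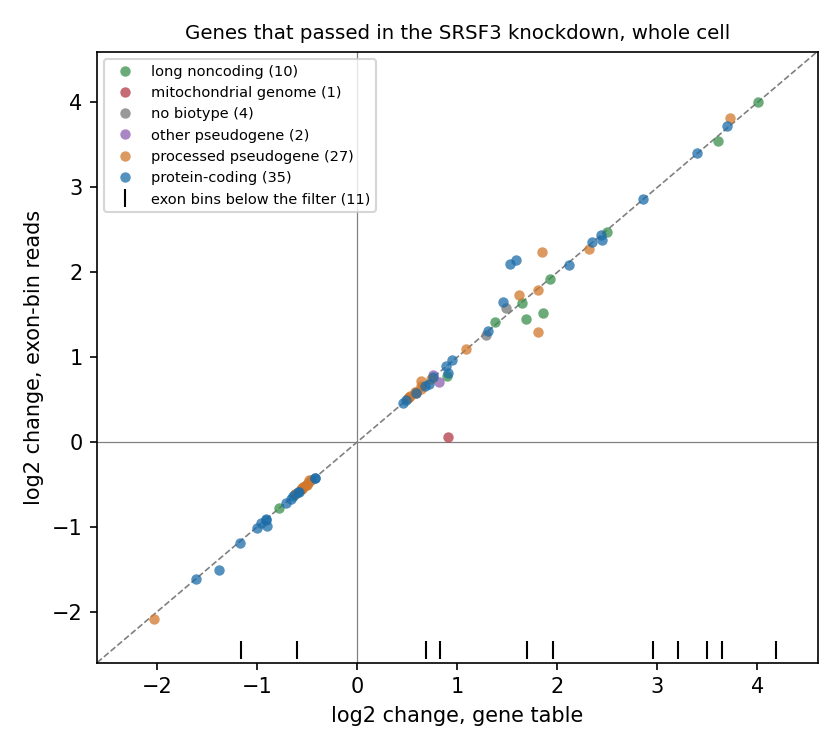
Log2 change in the SRSF3 knockdown in whole cells for the called single-exon genes, from the gene table (horizontal axis) and from exon-bin reads (vertical axis), with the diagonal marking equal changes and ticks at the bottom marking genes without an exon-bin change. Of the 90 calls, 66 also passed in the exon-bin reads and 11 were below the filter on low values there.

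The fixed gene lists gave few calls, all in the SRSF3 knockdown in whole cells, where 11.5% of all genes passed. Of the developmental transcription factors 13 were tested and only Pou3f3 passed, with a median log2 change of -0.31. Of 10 imprinted genes and retrogenes tested only Mcts2 passed, with a median of -0.20. Of 15 receptors tested, Olfr461 and Olfr692 rose and Fzd2 and Fzd9 fell, with a median of 0.03, and neither olfactory receptor passed the filter in exon-bin reads. None passed among 9 stress regulators (median -0.12), 3 histone variant genes, 8 protocadherins (median -0.46), 10 nuclear and structural noncoding RNAs (median 0.52), 4 BTB genes (median 0.07) and 2 signalling genes (median -0.22). H2afj, a histone gene that was not on the list, rose (0.58 ± 0.17, adjusted p = 0.0490 with limma). In exon-bin reads its adjusted p was 0.0600 with limma. Pou3f3 and Olfr692 passed the filter on low values only through the SRSF3 libraries. At an unadjusted p under 0.05, where 15.5% of the tested members and 28.6% of all genes passed, the counts were 5 of the 13 transcription factors, 1 of the 10 imprinted genes, 6 of the 15 receptors, 3 of the 9 stress regulators, 1 of the 3 histone variant genes, 0 of the 8 protocadherins, 1 of the 10 noncoding RNAs, 1 of the 4 BTB genes and 0 of the 2 signalling genes. Malat1 had 10353 and 11178 scaled reads in the SRSF3 knockdown, below both GFP values but within the 7526 to 16770.4 of the other knockdowns.

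Among mitochondrial transcripts and the nuclear fragments that copy them, mt-Nd6 and Gm10222 rose in the SRSF3 knockdown. Of 8 mitochondrial genes tested in whole cells only mt-Nd6, a subunit of complex I, passed, 5 had an unadjusted p under 0.05, and the median log2 change was 0.63. mt-Nd6 had 25003 and 21647 scaled reads in GFP and 57796 and 33379 in the SRSF3 knockdown (0.91 ± 0.24, adjusted p = 0.0337 with limma). Its exon-bin reads were 2041 and 3415 in GFP and 1794 and 4111 in the knockdown, a change of 0.06. mt-Nd6 does not lie inside another gene, and why the 2 readings differ was not tested. Gm10222, a nuclear copy of mt-Nd4l that shares 100% of its 25-base words, had 7880.5 and 6673 in GFP and 15143 and 10114 in the knockdown (0.76 ± 0.22, adjusted p = 0.0455 with limma). mt-Nd4l changed by 0.72 ± 0.23 with an adjusted p of 0.0571. Replicate A was the higher library of the SRSF3 knockdown for both genes. mt-Co1 was listed at 0 in all 16 whole-cell libraries although its exon bins held 485515 to 946764 reads, so its gene-table value is a failed estimate.

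The other knockdowns changed few single-exon genes in whole cells. In the SRSF1 knockdown 3 passed and 140 had an unadjusted p under 0.05, and 0.825% of all genes passed. All 3 rose. Without SRSF1 replicate B 7 others passed, all of them lower, and 0.673% of all genes, and without any 1 of the other libraries compared none passed. Fahd1, a mitochondrial hydrolase gene, had 181 and 238 in GFP and 449 and 339 in the SRSF1 knockdown (0.91 ± 0.19, adjusted p = 0.0473 with limma). It was also higher in the SRSF3 knockdown, at 403 and 373 (0.89 ± 0.19, adjusted p = 0.0136 with limma), and had 393 and 356 in the SRSF2 knockdown, with an adjusted p of 0.123, and 0.00971 with the block. The other 4 knockdowns lay between 179.8 and 312. Fahd1 lies across from Hagh on the other strand.

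5031425E22Rik, a long noncoding gene, had 78.4 and 88.1 in GFP, 151 and 137 in the SRSF1 knockdown (0.78 ± 0.16, adjusted p = 0.049 with limma) and 177 and 139 in the SRSF3 knockdown (0.90 ± 0.16, adjusted p = 0.0085 with limma). In exon-bin reads the SRSF1 change had an adjusted p of 0.0742 with limma. Gm12715, which shares 95.6% of its 25-base words with the actin gene Actg1, had 26794 and 28759.7 in GFP and 39367 and 38199.8 in the SRSF1 knockdown (0.48 ± 0.09, adjusted p = 0.0415 with limma). Actg1 went from 39165 and 42373 to 59054 and 55888 (0.50 ± 0.09, adjusted p = 0.0352 with limma). The comparisons with SRSF1, SRSF2 and SRSF3 share the same GFP libraries. With the letters as a block 64 members passed in the SRSF1 knockdown, where 11% of all genes did.

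No single-exon gene passed in whole cells in the SRSF2, SRSF4, SRSF5, SRSF6 or SRSF7 knockdown with limma, where 129, 61, 66, 45 and 76 had an unadjusted p under 0.05. Few genes of any kind passed there, 0.0216%, 0.0162%, 0%, 0.0162% and 0.0323% in the same order. On exon-bin reads edgeR called 0 in each of these, and DESeq2 called 3 in the SRSF2 knockdown, 1 in the SRSF7 knockdown and 0 in the others. DESeq2 called 1.37% of all genes for SRSF2 and 0.343% for SRSF7. With the letters as a block the counts were 32 for SRSF2, where 5.99% of all genes passed, and 9 for SRSF7, where 1.13% did, and still 0 for SRSF4, SRSF5 and SRSF6.

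In the cytoplasm 2 members passed, both in the SRSF3 knockdown, where 0.558% of all genes did and 152 members had an unadjusted p under 0.05. Beside Ubald1, Fam43b fell from 75.9 and 52.7 in GFP to 12.2 and 23.2, below the 30.9 to 67.1 of the other knockdowns (-1.85 ± 0.34, adjusted p = 0.0382 with limma). In whole cells it had 33.6 and 14.2 in GFP and 5.89 and 7.49 in the knockdown, with an adjusted p of 0.0544, and 0.0147 with the block. Fam43b lies across from AB041806 on the other strand. Ubald1 and Fam43b were thus both lower. With the block 147 members passed in the SRSF3 cytoplasm, 71 higher and 76 lower, and 14% of all genes. Without SRSF3 replicate B 4 were higher and 4 lower, and 0.777% of all genes passed, and without any 1 of the other libraries compared none passed. In the cytoplasm of the SRSF1, SRSF2, SRSF4, SRSF5, SRSF6 and SRSF7 knockdowns no member passed with limma, with 86, 115, 61, 27, 39 and 59 at an unadjusted p under 0.05 and 0.0456%, 0%, 0.00569%, 0%, 0% and 0% of all genes passing. On exon-bin reads edgeR called 0 in each of these, and DESeq2 called 5 in the SRSF1 cytoplasm, with 1.71% of all genes, and 0 in the others. The block gave 34 for SRSF1 (5.87% of all genes) and 9 for SRSF2 (1.84% of all genes). Without SRSF2 replicate B 76 members passed for SRSF2, all of them lower, and 1.16% of all genes.

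The question the study put to these fractions is whether cytoplasmic RNA changed beyond whole-cell RNA. For single-exon genes no such relative change passed in any knockdown, among 2447 tested with limma on all 32 libraries. From SRSF1 to SRSF7 the numbers with an unadjusted p under 0.05 were 31, 79, 69, 49, 28, 25 and 34, and the shares of all genes that passed were 0.0156%, 0%, 0.0104%, 0.0208%, 0%, 0.0156% and 0.0156%. With the letters as a block 4 members passed in the SRSF3 knockdown, 2 in each direction, and 0.588% of all genes. The median relative log2 change in the SRSF3 knockdown was -0.12 for the members and -0.04 for all genes. On exon-bin reads edgeR and DESeq2 called 0 members in each of the 7 relative comparisons. Without SRSF2 replicate B, 41 members passed in the SRSF2 knockdown, all of them lower, and 0.53% of all genes.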

How the data were processed

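The submitters' processing notes list Bowtie2 2.1.0, Cufflinks 2.1.1, TopHat2 in versions 2.0.10 and 2.0.9, CASAVA 1.8.2 and, with no version, cutadapt, with no role for any of them. The gene tables deposited by the authors hold signal values, which are reads estimated per gene and scaled by 1 factor per library. From their smallest steps, 97.9% to 98.7% of the low values of a library came out as whole reads within 0.1 of a step. The whole-cell and cytoplasmic tables were scaled separately by the authors. The exon-bin signal deposited by the authors, on mm10, is reads per bin divided by a size factor, and gave whole reads. The FPKM, splicing and differential expression files were not used, and the last hold the authors' own comparisons. The use of strand in counting is not stated.

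Genes were tested with limma 3.58.1 (trend) in R 4.3.3 on log2(value + 1) after TMM scaling and edgeR's expression filter, over all 16 libraries of a fraction or, for relative changes, all 32 with an interaction. P-values were adjusted by Benjamini-Hochberg over all genes. edgeR 4.0.16 and DESeq2 1.42.0 were run on the exon-bin reads, which are counts, as alternatives, and the fits were tested on simulated data. The labels give letters only. The differences between letters A and B correlated between groups in all 28 pairs. Spearman's rho was 0.238 to 0.814 in whole cells over 12646 genes and 0.449 to 0.827 in the cytoplasm over 11800 genes. The main fits used the groups only and left this pairing out. Fits with the letters as a block were alternatives. Their counts are given where they differ, and their adjusted p-values for some named genes only. Shared sequence was measured as the share of a gene's 25-base words found in the protein-coding transcripts of another GENCODE vM1 gene, joined by identifier. Transcripts of pseudogenes and noncoding genes were not searched, so copies among them would not be seen. The genes of the set and the gene lists were chosen with earlier results of these data known. Named were list members that passed the filter, the most abundant genes per biotype, every called gene or the 6 largest rises and falls where more than 12 passed, and the 6 highest and 6 lowest ratios. Alternatives were other constants, filters, scalings, tools, tables, ratio minimums and left-out libraries.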

Additional observations from a re-analysis of the deposited data

How the results depend on the processing

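No change of a named gene that was followed reversed under an alternative. Followed were the largest rises and falls of SRSF3 in whole cells, the calls in other comparisons, and the smallest p where nothing passed. The other calls of SRSF3 in whole cells, such as Fzd2, Rraga and mt-Nd6, were not followed there. The median ratio of the genes without a biotype changed sign with a minimum of 10, and medians of change by class that lay near 0 changed sign in some fits. Of the comparisons of calls, 85 whole-cell, 90 cytoplasmic and 102 relative counts stayed within 1.5 times of the count given, and 20, 15 and 3 did not. In whole cells the 3 calls of SRSF1 became 9 with DESeq2, 1 with edgeR, 1 with exon-bin reads, 1 without a filter, 0 with only the libraries compared, 64 with the letters as a block and 0 to 7 with a library left out (7 without SRSF1 replicate B, all lower, where the 3 were higher). The 0 of SRSF2 became 3 with DESeq2 and 32 with the block, and the 0 of SRSF7 became 1 and 9. The 90 of SRSF3 became 13 with only the libraries compared, 355 with the block and 1 to 169 with a library left out (1 without SRSF3 replicate A, 12 without GFP replicate A, 35 without GFP replicate B, 169 without SRSF3 replicate B). In the cytoplasm the 0 of SRSF1 became 5 with DESeq2 and 34 with the block, and the 0 of SRSF2 became 9 with the block and 0 to 76 with a library left out (76 without SRSF2 replicate B). The 2 of SRSF3 became 26 with DESeq2, 4 with edgeR, 5 without a filter, 0 with only the libraries compared, 4 with a constant of 5, 147 with the block, 1 for genes of 1 bin and 0 to 8 with a library left out (8 without SRSF3 replicate B, 4 of them higher). Of the relative counts, the 0 of SRSF2 became 0 to 41 with a library left out (41 without SRSF2 replicate B), and the 0 of SRSF3 became 1 with a constant of 5 and 4 with the block. The block changed no other count of calls. The median log2 ratio of the protein-coding members, 0.69, became 0.76 with exon-bin reads, 0.43 and 0.91 with a minimum of 10 and of 500 scaled reads, and 0.74 outside other genes. That of the processed pseudogenes, 1.03, became 0.86 with a minimum of 10, that of all members, 0.92, became 0.70 and 1.03 with 10 and 500, and that of the other pseudogenes, -1.10, became -0.89 with 500. That of the long noncoding genes, -1.73, became -2.92 with exon-bin reads, -0.74 and -3.08 with 10 and 500, -0.35 for genes of 1 bin and -2.94 outside other genes, so that it rests on few genes. That of the genes without a biotype, 0.72, became -0.26 and 0.83 with 10 and 500, and 0.60 for genes of 1 bin. With 1 letter only the medians ran from 0.680 to 0.703 for protein-coding members, 0.961 to 1.09 for processed pseudogenes, -1.91 to -1.55 for long noncoding genes, -1.16 to -1.04 for other pseudogenes, 0.646 to 0.793 for genes without a biotype, -1.02 to -0.22 for mitochondrial genes and 0.876 to 0.958 for all members. The cause of these differences was not tested. Of the values of the named genes that were followed, 365 kept their side of the threshold, 69 lost it and 7 gained it. With 2 libraries a group, a lone library left after leaving out the other was assumed to vary like the other groups.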
